A study of Mus musculus with 12 samples.

Results

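The genes described here encode integrins, laminins and nidogens. They were chosen by symbol alone, in the authors' deposited table of fold changes. A fixed pattern took symbols of integrin α and β genes, laminin α, β and γ chain genes and nidogen genes. The rule took 34 genes of the 20620 in the deposited count table, and of the 13959 with a symbol in the authors' table. Itgb7, Itgae and Lama1 match the pattern too but are in the count table only, at 0 to 34, 0 to 25 and 0 to 73 counts per library, and were not taken. The pattern has no place for Itga2b, an integrin α gene that was tested but is not among the 34.

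RNA was measured by sequencing in mouse aortic valves dissected at postnatal day 10. The 12 libraries form 3 groups of 4: wildtype, Notch1+/-;Gata5+/- and Notch1+/-;Gata5-/-. For every library 3 valves were pooled, so n counts pools. Both mutant groups carry Notch1+/-, and they are called here the Gata5+/- and the Gata5-/- libraries, as labelled. The labels name neither the strain nor the part of Notch1 missing from its allele. Gata5, which encodes a GATA-binding regulator of heart genes, had 0 counts in every Gata5-/- library, against 18 to 56 in wildtype and 15 to 112 in the Gata5+/- libraries. Notch1, a receptor of cell-to-cell signalling, stood at 98.6 to 159 CPM in wildtype, 148 to 194 in the Gata5+/- and 152 to 213 in the Gata5-/- libraries, and was not lower in either mutant group. A gene-level count cannot test that label without knowing which exons the allele lacks. The unit of levels below is CPM, with library totals scaled by the trimmed mean of M-values (TMM), unless a length is named.

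The libraries held 13866604 to 25059653 counts. Genes at 0 numbered 6000 in Gata5-/- replicate 3, 3208 in wildtype replicate 2 and 1017 to 2908 elsewhere. Those 2 libraries also correlated least with the rest, and are meant below by the libraries that stand apart. The summed level of 10 valve interstitial and fibroblast markers was 19310 to 23620 CPM in wildtype, 21340 to 25580 in the Gata5+/- and 21140 to 23930 in the Gata5-/- libraries, and that of 10 heart muscle markers 23250 to 49910, 28430 to 53900 and 37300 to 53480. The lowest heart muscle sum, 23250, was that of wildtype replicate 2, with the other wildtype libraries at 43850 to 49910. Gata5+/- replicate 1 had the next lowest, 28430. In bulk RNA, fewer cells of a type and less RNA per cell cannot be told apart.

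Integrins are receptors of the cell surface, each made of an α and a β chain, which tie the cytoskeleton to matrix outside the cell. Laminins are trimers of an α, a β and a γ chain that build the sheet of every basement membrane, and nidogens link them to the type IV collagen network. The β1 chain joins many α chains, so the α chain largely sets the ligand. In a valve, integrins let interstitial and endothelial cells hold on to a matrix that is remodelled after birth.

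In wildtype valves the β1 chain gene and the α8 gene led the set. Per kilobase of exon (CPM per kb, which allows genes of different length to be compared), Itgb1 was at 280 ± 26.1 and Itga8 at 124 ± 19.5 (SD, n = 4 each). Next came Lamc1, the laminin γ1 chain, at 102 ± 9.64, and Lamb2, the laminin β2 chain, at 78.7 ± 5.55. Itga9 followed at 68.6 ± 8.20, Itgb5 at 64.9 ± 6.23 and Nid1 at 59.1 ± 3.97 CPM per kb. Of the 33 steps down this order, 6 were wider than the SDs of both neighbours added together. These were the steps below Itgb1, Lamc1, Nid1, Itgav, Itga5 and Itgb8, and the other steps were narrower than that. By this rule Itga8 and Lamc1, or Lamb2 and Itga9, were not apart. In each wildtype pool, though, Itga8 was above Lamc1 and Lamb2 was above Itga9.

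**Figure D1:**
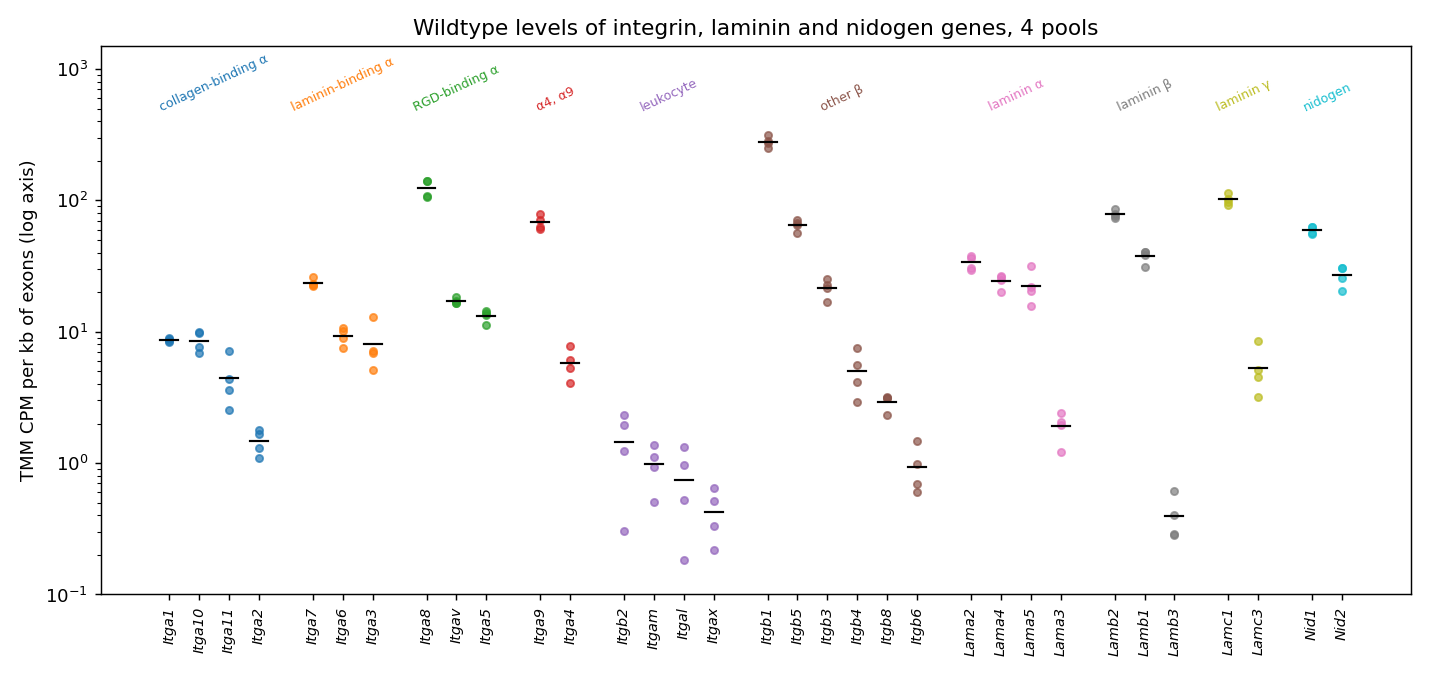
Wildtype level of 33 of the 34 genes on a log axis, in CPM per kb of exon, grouped by role, with 1 point per pool and a bar at the mean of 4 pools. Itgb1 lies highest at 280 CPM per kb and Lamb3 lowest at 0.398, and the 4 leukocyte integrin genes all lie below 2 CPM per kb on average.

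Among the α chains by role, the collagen-binding genes Itga1 and Itga10 were not apart, at 8.65 ± 0.298 and 8.53 ± 1.54 CPM per kb. Itga7 led the laminin-binding genes at 23.5 ± 1.65 CPM per kb. Itga8 led the α chains that read the RGD motif, ahead of Itgav at 17.1 ± 0.839 and Itga5 at 13.2 ± 1.35. Itga9 stood well above Itga4, at 5.79 ± 1.54 CPM per kb. Itgb2, the β chain of leukocytes, was at 1.45 ± 0.882, and Itgam, Itgal and Itgax were lower still. Among laminin α chains, Lama2, Lama4 and Lama5 held 40.8% ± 4.78, 29.7% ± 4.12 and 27.2% ± 7.66 of the summed level per kb. Lamb2 held 67.4% ± 3.99 of the β sum, and Lamc1 93.6% ± 2.12 of the γ sum (SD, n = 4 each). Lama3 and Lamb3, chains known from epithelial basement membranes, stood at 1.91 ± 0.500 and 0.398 ± 0.154 CPM per kb. The Nid1 to Nid2 ratio was 2.23 ± 0.306.

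The first comparison sets the Gata5-/- libraries against wildtype, so the labels of both Notch1 and Gata5 differ. edgeR called 0 of the 34 genes at an adjusted p under 0.05, against 0.0258% of all 19346 genes tested. limma-voom also called 0, and DESeq2 called 1, Itga8, against 0.233% of all genes. At an unadjusted p under 0.05 in edgeR, 5 genes were lower, Itga3, Itga7, Itga8, Itga9 and Itgb3 (14.7% of the 34, against 3.36% of all genes), and 0 higher (against 2.04%). In 3 genes, Itga7, Itga8 and Itga9, every Gata5-/- library lay below every wildtype library (against 1.99% of all genes), and in 0 above (against 0.936%). All 5 genes encode integrin chains and 0 are laminin or nidogen genes, but integrin genes are the larger part of the 34. No difference between these kinds of gene was tested. Of the 34 genes, 27 averaged at least 10 CPM, against 9841 of the 19346 genes tested. Shares at an unadjusted p or without overlap were not computed among genes of like level. The log2 fold change was below 0 for 24 of the 34 genes, or 70.6%, against 53.9% of all genes, with a median of -0.15 against -0.03. Without both libraries that stand apart, 20 were below 0 with a median of -0.06, and 3 genes were lower without overlap. With fewer pools per group, lack of overlap is easier to reach. The shares of all genes below 0 or without overlap were not computed in this setting.

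**Figure D2:**
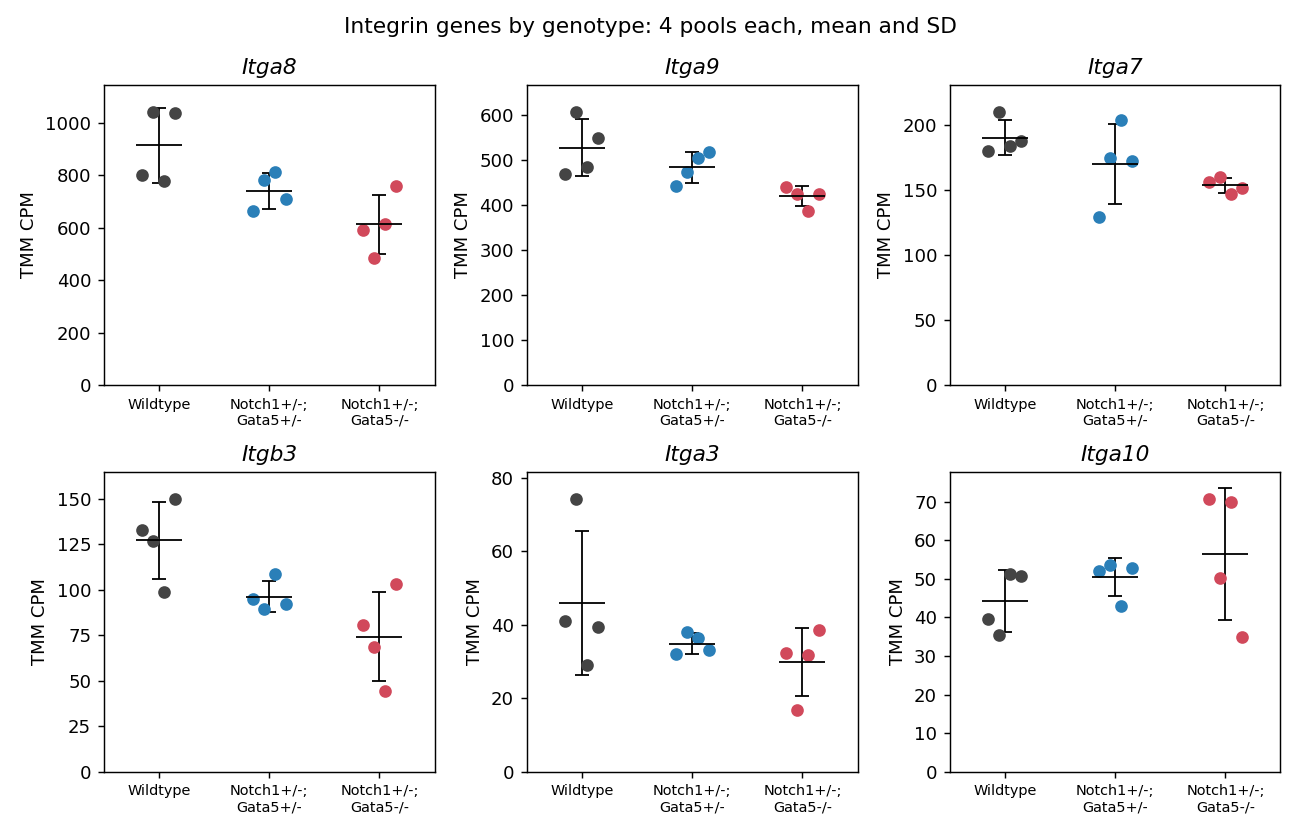
TMM CPM of 6 integrin genes in each of 12 pools (points, replicates 1 to 4 from left to right), with the mean (black bar) and SD of 4 pools, by genotype. Itga8, Itga9 and Itga7 show Gata5-/- pools all below wildtype, while Itgb3 and Itga3 overlap and Itga10 has Gata5-/- pools above and below the wildtype ones.

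Itga8 (ENSMUSG00000026768) encodes the α8 chain, which pairs with β1 and binds RGD-containing ligands such as nephronectin. It was at 802.5, 1040, 776.9 and 1036 CPM in wildtype replicates 1 to 4. It was at 662.5, 780.3, 811.8 and 707.8 in the Gata5+/- libraries and at 592.7, 484.8, 614.1 and 757.8 in the Gata5-/- libraries. All Gata5-/- values were below all wildtype values, with Gata5-/- replicate 4 just under wildtype replicate 3. The Gata5+/- values overlapped both groups. Means were 914 ± 144, 741 ± 67.9 and 612 ± 112 CPM (SD, n = 4 each). For Gata5-/- against wildtype, the log2 fold change was -0.58 (SE 0.14, edgeR adjusted p = 0.341, exact permutation p = 0.0286, two-sided, the smallest that 4 against 4 can give). DESeq2 called it at -0.55 (adjusted p = 0.0251). In the authors' deposited table, Itga8 has a log2 fold change of -0.55 and an adjusted p of 0.0234, and is not marked as changed, since its fold change lies inside the 0.58 limit there.

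A promoter window is shown for Itga8, the highest α gene of the set, so that motifs of GATA factors and of the Notch partner RBPJ can be looked for in it. It is the 250 bases before the RefSeq start site in GRCm38.p6, at chr2:12301945-12302194, printed 5′ to 3′ on the gene's own minus strand.
Itga8: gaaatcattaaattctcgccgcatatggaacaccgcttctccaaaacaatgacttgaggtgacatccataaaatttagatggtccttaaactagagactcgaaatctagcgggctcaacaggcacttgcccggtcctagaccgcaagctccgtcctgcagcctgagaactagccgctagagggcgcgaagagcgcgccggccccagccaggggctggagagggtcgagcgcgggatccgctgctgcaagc
Both strands were searched for the GATA motif (the letters GATA with A or T before them and A or G after them), for TGGGAA, a core bound by RBPJ, and for the CArG box bound by serum response factor. The Itga8 window held no match, so all its letters stay in lower case. No match says only that these letters are not in this window. Bases shortly after its start site were not found in any Itga8 transcript of an older annotation (GENCODE vM21), so this start is uncertain. The promoter table used held 22 of the 34 genes, in 25 windows, and each was searched over the same 250 bases. A GATA motif was in 1 of these 25 windows, that of Itgax, against 26.5% of all 32851 windows. TGGGAA was in 5 of the 25, of Lama2, Lamb1, Lamb3 and Nid1, against 21.6% of all windows. The CArG box was in 2 of the 25, of Itgb6 and Lama2, against 1.47%. GC content was 56.4% for Itga8, with a median of 52.4% over all windows.

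Itga9 (ENSMUSG00000039115) encodes the α9 chain, which pairs with β1, binds tenascin C and is known for its part in lymphatic valves. Wildtype replicates 1 to 4 were at 469.4, 606.1, 484.2 and 549.8 CPM, and Gata5+/- at 441.1, 472.5, 505.2 and 518. Gata5-/- replicates were at 439.5, 424.5, 387.4 and 425 CPM, below every library of both other groups. Means were 527 ± 63.1, 484 ± 34.5 and 419 ± 22.2 (SD, n = 4 each). The log2 fold change against wildtype was -0.33 (SE 0.11, edgeR adjusted p = 0.839, exact permutation p = 0.0286). It was -0.24 without wildtype replicate 2 and -0.21 without both libraries that stand apart.

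Itga7 (ENSMUSG00000025348) encodes the α7 chain, the laminin receptor of muscle cells. It was at 179.6, 209.6, 183.8 and 187.5 CPM in wildtype, at 129.1, 174.7, 203.3 and 171.9 in Gata5+/-, and at 156.1, 159.9, 146.5 and 151.1 in Gata5-/- libraries. The Gata5-/- values were close together and below the wildtype values, while the Gata5+/- values spanned both. The Gata5-/- against wildtype log2 fold change was -0.31 (SE 0.13, edgeR adjusted p = 0.86, exact permutation p = 0.0286).

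Itgb3 (ENSMUSG00000020689), the β3 chain that joins αv to bind vitronectin and fibronectin, had the largest negative fold change among genes over 10 CPM. It was at 133.1, 126.6, 98.82 and 149.9 CPM in wildtype and at 94.79, 89.35, 108.4 and 91.99 in Gata5+/- libraries. In the Gata5-/- libraries it was at 80.55, 68.45, 44.4 and 103. Gata5-/- replicate 4 lay above wildtype replicate 3, so the groups overlapped. The log2 fold change was -0.78 (SE 0.19, edgeR adjusted p = 0.426, exact permutation p = 0.0571, DESeq2 adjusted p = 0.068). Without Gata5-/- replicate 4, edgeR called Itga8 and Itgb3 (log2 fold change -0.70 and -0.98, adjusted p = 0.0298 and 0.0278). That pool had the highest Gata5-/- value of both genes. Without it, 21 genes were called over the whole table, against 5 with all libraries. No other omission of 1 library called any of the 34 genes. The authors' deposited table gives Itgb3 a log2 fold change of -0.76 and an adjusted p of 0.0681, and marks it as lower, the 1 gene of the 34 among the 33 it marks.

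Itga3 (ENSMUSG00000001507) encodes the α3 chain, a laminin receptor of epithelia. It was at 40.97, 74.25, 29.11 and 39.46 CPM in wildtype, at 32.07, 38.06, 36.34 and 33.11 in Gata5+/-, and at 32.46, 16.9, 31.8 and 38.62 in Gata5-/- libraries. Wildtype replicate 2 stood high and the remaining values overlapped. The log2 fold change of Gata5-/- against wildtype was -0.62 (SE 0.26, edgeR adjusted p = 0.86, exact permutation p = 0.229), and it was -0.27 without wildtype replicate 2. Summed over 7 epicardial and mesothelial markers, wildtype replicate 2 was also highest of 12, at 137.5 CPM. The sums ranged from 73.4 to 137.5 in wildtype, 59.3 to 123 in Gata5+/- and 32.8 to 110 CPM in Gata5-/- libraries, with 2 markers at 0 in Gata5-/- replicate 2 and 3 in Gata5-/- replicate 3. Their part in the result was not tested.

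Itga10 (ENSMUSG00000090210), a collagen-binding α chain known from cartilage cells, had the largest positive fold change among genes over 10 CPM. It was at 39.51, 35.48, 51.35 and 50.68 CPM in wildtype and at 52.16, 53.57, 43.04 and 52.91 in Gata5+/- libraries. The Gata5-/- libraries were at 70.72, 50.19, 69.94 and 34.9, with replicates 1 and 3 high and replicate 4 low. The log2 fold change was 0.35 (SE 0.20, edgeR adjusted p = 1, exact permutation p = 0.4), within the spread. In an older annotation 33.5% of its exon length is shared with Gm42957 on the same strand, so its counts are uncertain.

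**Figure D3:**
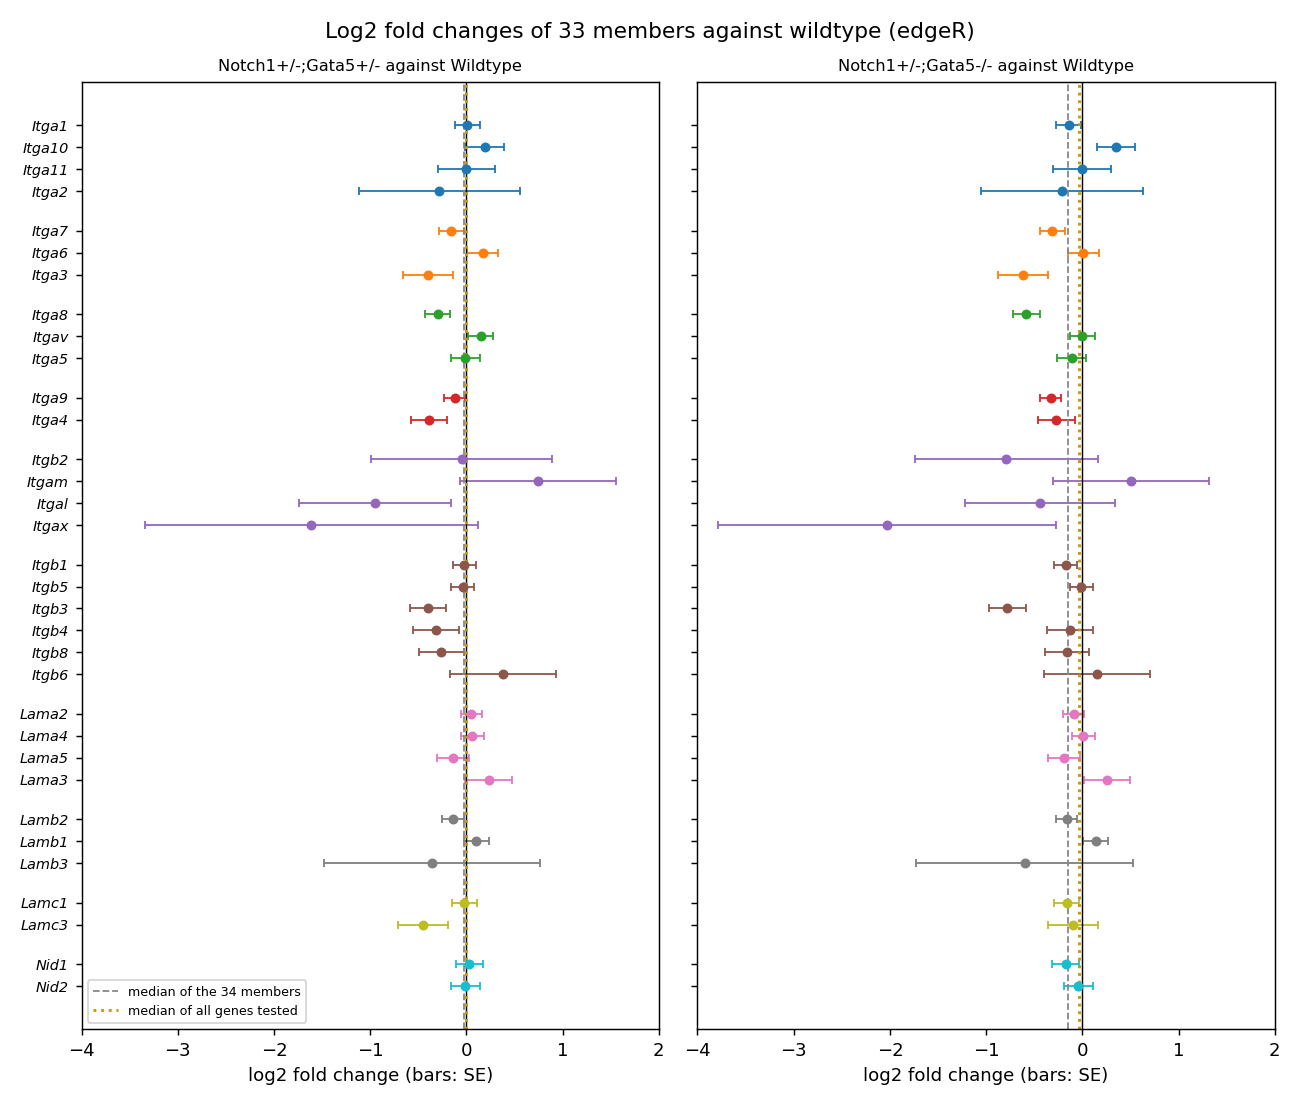
Log2 fold change (edgeR, bars are SE) of 33 of the 34 genes in Gata5+/- (left) and Gata5-/- (right) libraries against the same wildtype libraries, grouped by role from collagen-binding integrins at the top to nidogens at the bottom. The dashed line is the median of the 34 genes, -0.03 on the left and -0.15 on the right, and the dotted line that of all genes tested, 0.00 and -0.03.

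No other receptor chain had an unadjusted p under 0.05 in this comparison. Itgb1 was at 1111, 1025, 1156 and 1280 CPM in wildtype, 1099, 1152, 998.8 and 1256 in Gata5+/-, and 876, 1026, 929.3 and 1240 in Gata5-/- libraries, with all groups overlapping. Its log2 fold change was -0.17 (SE 0.12, exact permutation p = 0.229) for Gata5-/- against wildtype. Itgav and Itgb5, which pair as the αvβ5 receptor of vitronectin, had log2 fold changes of 0.00 (SE 0.13) and -0.01 (SE 0.12). Itga5, the main fibronectin receptor chain, was at -0.11 (SE 0.15) and the laminin receptor gene Itga6 at 0.01 (SE 0.16). Itga1, a collagen receptor chain, was at -0.14 (SE 0.13). Itga4 was at -0.27 (SE 0.19) and Itgb4 at -0.13 (SE 0.24). Itga11 was at 0.00 (SE 0.30), Itgb8 at -0.16 (SE 0.23), Itgb6 at 0.15 (SE 0.55) and Itga2 at -0.21 (SE 0.84).

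The leukocyte integrin genes were low, and their SEs wide. Itgb2 was at 5.926, 7.04, 0.9308 and 3.756 CPM in wildtype and at 6.65, 1.36, 0 and 2.148 in Gata5-/- libraries. Itgal, Itgam, Itgax and Itgb2 had log2 fold changes of -0.44, 0.51, -2.03 and -0.79 with SEs of 0.78, 0.81, 1.76 and 0.95. Gata5-/- replicate 3 had 0 counts of Itga2, Itgam, Itgax, Itgb2 and Lamb3, and Itgax was also at 0 in Gata5-/- replicate 1 and Gata5+/- replicate 4. A count of 0 allows up to 3 counts, 0.206 CPM in Gata5-/- replicate 3, as counting error only. The summed level of leukocyte and macrophage markers was 190 to 238 CPM in wildtype, 192 to 250 in Gata5+/- and 185 to 212 in Gata5-/- libraries, with 9 of 10 markers in the table. In the older annotation, 68.7% of the exon length of Itgam is shared with Gm49368 on the same strand, so its value is uncertain.

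The laminin and nidogen genes were called in none of the 3 comparisons by edgeR, DESeq2 or limma-voom. Lama2, the α chain of muscle and nerve basement membranes, was at 600.2, 501.6, 618.3 and 481.5 CPM in wildtype and 501.8, 501.3, 520.3 and 548.1 in Gata5-/- libraries. Its log2 fold change was -0.09 (SE 0.11). Lama4, the α chain of vessel walls, was at 0.01 (SE 0.12), Lama5 at -0.19 (SE 0.17) and Lama3 at 0.26 (SE 0.24). Lamb2 was at 444, 524.1, 466.7 and 480.1 CPM in wildtype, 370.6, 412.4, 483.6 and 465.3 in Gata5+/-, and 428.6, 444.4, 419.2 and 422.6 in Gata5-/- libraries. The Gata5-/- values were close together, with 3 of 4 below every wildtype value and replicate 2 just above wildtype replicate 1. Against wildtype this was a log2 fold change of -0.16 (SE 0.11, exact permutation p = 0.0571). Lamb1, which can take the same place in the trimer, was at 0.14 (SE 0.13).

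Lamc1, the chain shared by most laminins, was at 854.8, 803, 761.5 and 946.6 CPM in wildtype and 769.1, 755.2, 632.1 and 859.6 in Gata5-/- libraries, a log2 fold change of -0.16 (SE 0.13). Lamc3 was at -0.10 (SE 0.26). Lamb3, a low gene, was at -0.60 (SE 1.13). Nid1 was at 390, 435.5, 382.8 and 431.9 CPM in wildtype, 369.9, 415.7, 424.8 and 469.9 in Gata5+/-, and 414.7, 354.7, 253.1 and 440.2 in Gata5-/- libraries. Gata5-/- replicate 3 was the lowest of the 12, and the groups overlapped. The log2 fold change was -0.17 (SE 0.14) for Nid1 and -0.04 (SE 0.15) for Nid2, its close relative.

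The second comparison sets the Gata5+/- libraries against the same wildtype libraries, so it is not independent of the first. edgeR called 0 of the 34 genes, against 0% of all genes, limma-voom 0 and DESeq2 0 (against 0.00517%). At an unadjusted p under 0.05, 2 genes were lower, Itga8 and Itgb3 (against 0.445% of all genes), and 0 higher (against 0.806%). In 0 genes did the groups avoid overlap in either direction (against 0.915% lower and 1.32% higher). The median log2 fold change was -0.03, against 0.00 over all genes, and 22 of 34 were below 0 against 49.7%. Itga8 had a log2 fold change of -0.30 (SE 0.13, edgeR adjusted p = 1, exact permutation p = 0.143) and Itgb3 one of -0.40 (SE 0.19, adjusted p = 1, exact permutation p = 0.0571). Their values were -0.58 and -0.78 in the Gata5-/- libraries.

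Others with small p in the second comparison had a high wildtype library. Itga4, the α4 chain that binds VCAM1 and fibronectin, was at 73.87, 84.9, 56.68 and 108 CPM in wildtype and 57.21, 65.65, 64.96 and 58.64 in Gata5+/- libraries. Its log2 fold change was -0.39 (SE 0.19, edgeR adjusted p = 1, exact permutation p = 0.171), or -0.22 without wildtype replicate 4. Lamc3, the laminin γ3 chain, was at 27.34, 51.44, 31.24 and 19.28 CPM in wildtype and 25.09, 21.23, 28.27 and 19.85 in Gata5+/- libraries. Its log2 fold change was -0.45 (SE 0.26), and -0.14 without wildtype replicate 2. Itgb4, the partner of α6 in hemidesmosomes, was at 39.09, 52.33, 20.48 and 29.14 CPM in wildtype and 31.23, 24.76, 25.1 and 31.84 in Gata5+/- libraries. Its log2 fold change was -0.32 (SE 0.24), and -0.07 without wildtype replicate 2. That of Itga3 was -0.40 (SE 0.26), and also -0.07 without wildtype replicate 2. Wildtype replicate 2 was the highest of the wildtype libraries in Lamc3, Itgb4 and Itga3.

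The third comparison, of both mutant groups, differs in the Gata5 label alone. edgeR, DESeq2 and limma-voom each called 0 of the 34 genes (against 0% in edgeR and 0.0155% in DESeq2), and 0 had an unadjusted p under 0.05 in edgeR (against 2.08% lower and 1.10% higher). In 1 gene, Itga9, all Gata5-/- libraries lay below all Gata5+/- libraries (against 2.03% of all genes), and in 0 above (against 0.703%). The highest Gata5-/- and the lowest Gata5+/- value of Itga9 were 439.5 and 441.1 CPM, and the log2 fold change was -0.21 (SE 0.11, edgeR adjusted p = 1, exact permutation p = 0.0286). This separation was lost with RLE and upper quartile scaling and without the libraries that stand apart. Itga8 was at -0.27 (SE 0.13, exact permutation p = 0.0857), Itgb3 at -0.37 (SE 0.19, exact permutation p = 0.143) and Nid1 at -0.20 (SE 0.14, exact permutation p = 0.286), or -0.05 for Nid1 without Gata5-/- replicate 3. Lamc3 was at 0.35 (SE 0.26, exact permutation p = 0.2) and Itgb1 at -0.15 (SE 0.12, exact permutation p = 0.314). The median of the 34 genes was -0.14, against -0.04 over all genes, and 23 were below 0, against 55.4%.

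Balances between chains are given as descriptions with no test. Summed per kb, the 12 α genes that pair with β1 (Itga1 to Itga11 and Itgav) were at 293 ± 33.97 in wildtype, 262 ± 18.7 in Gata5+/- and 230 ± 19.6 CPM per kb in Gata5-/- libraries (SD, n = 4 each). No Gata5-/- sum, at 207.8 to 253.7, reached the lowest wildtype sum of 260.5. Itga8 and Itga9 make up most of the sum and were named above for lack of overlap, so this is not a separate result. Itga8 made up 42.2% ± 2.10, 38.4% ± 1.24 and 36.0% ± 3.88 of the sum, and Itga9 23.4%, 24.1% and 23.8%. Itgav made up 5.92% ± 0.804, 7.28% ± 0.689 and 7.42% ± 0.761. Itgb3 and Itgb5 both encode partners of αv, and the ratio of their levels per kb was 0.331 ± 0.0402, 0.260 ± 0.0262 and 0.198 ± 0.0702. Ranges of that ratio were 0.296 to 0.380, 0.235 to 0.293 and 0.104 to 0.274, so wildtype did not overlap either mutant group. The margin to Gata5+/- was narrow, with a lowest wildtype ratio of 0.2961 and a highest Gata5+/- ratio of 0.2926. Itgb3 by itself overlapped with wildtype in both mutant groups. It was named above for its small p, so the ratio is not a separate result either. How often ratios of other genes separate the groups was not computed.

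**Figure D4:**
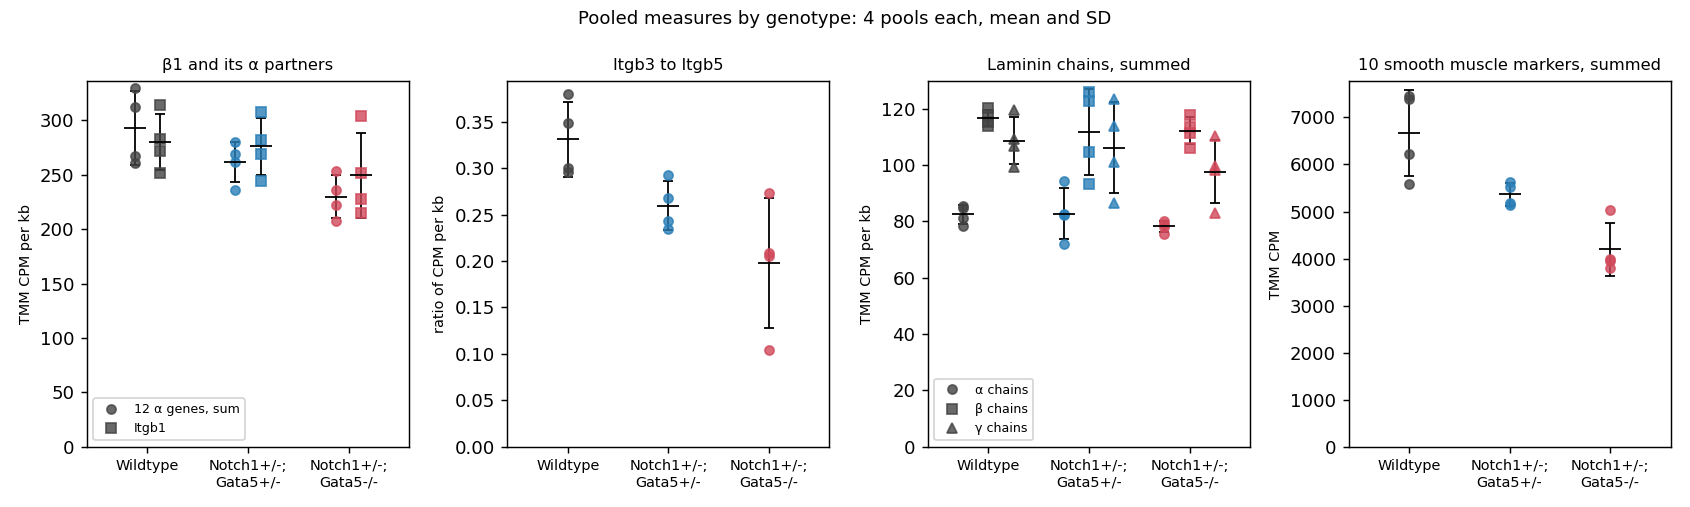
Pooled measures in each of 12 pools (points) with mean (bar) and SD of 4, by genotype: β1 and its 12 α partners (CPM per kb), the Itgb3 to Itgb5 ratio, summed laminin α, β and γ chains (CPM per kb), and the summed level of 10 smooth muscle markers (CPM). The 12 α genes have a mean of 293 CPM per kb in wildtype and 230 in Gata5-/- pools, and each laminin sum overlaps between the groups.

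The laminin sums overlapped between the groups. The α sum was 82.5 ± 3.31, 82.7 ± 9.14 and 78.2 ± 2.02 CPM per kb in wildtype, Gata5+/- and Gata5-/- libraries, the β sum 117 ± 2.84, 112 ± 15.4 and 112 ± 4.78, and the γ sum 109 ± 8.37, 106 ± 16.1 and 97.7 ± 11.3 (SD, n = 4 each). Lamb2 held 67.4%, 63.9% and 62.9% of the β sum, and Lamc1 93.6%, 94.4% and 93.3% of the γ sum. The ratio of both nidogens to the γ sum was 0.792, 0.828 and 0.804.

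Markers of smooth muscle were lower in the same libraries. Summed over 10 markers, with none at 0 in any library, the level was 6226, 7382, 5583 and 7456 CPM in wildtype replicates 1 to 4. It was 5134, 5513, 5188 and 5630 in Gata5+/- and 3802, 3953, 3985 and 5038 in Gata5-/- libraries, the last all below wildtype. All 10 markers had a log2 fold change below 0 in Gata5-/- against wildtype (against 53.9% of all genes), with a median of -0.70. Of the 10, edgeR called 4 lower (Myh11, Cnn1, Mylk and Synpo2). Over all 19346 genes tested it called 5 lower, or 0.0258%. In Gata5+/- the median was -0.30. Per 1000 CPM of these markers, Itga8 was at 137 ± 5.45 CPM in wildtype, 138 ± 14.0 in Gata5+/- and 146 ± 15.6 in Gata5-/- libraries (SD, n = 4 each), all overlapping. Itgb3 was at 19.1 ± 1.99, 18.0 ± 2.20 and 17.5 ± 4.57. Itga9 was at 79.5 ± 6.04, 90.2 ± 5.58 and 101 ± 13.5, and Itga7 at 28.8 ± 3.19, 31.6 ± 5.78 and 37.1 ± 5.09. For Itgb1 and Itga1 the ratios were 174 ± 27.99, 210 ± 12.85 and 242 ± 13.4, and 24.6 ± 4.15, 30.2 ± 3.13 and 35.1 ± 5.54. The ratios of Itga8 and Itgb3 overlapped between all groups. Mean ratios of Itga9, Itga7, Itgb1 and Itga1 were higher in Gata5-/- libraries than in wildtype, without overlap for Itgb1. These ratios were chosen after the values were seen, have no test, and divide each gene by a sum that was itself lower in the mutant groups. Endothelial markers overlapped between the groups, at 887 to 1113, 886 to 1234 and 882 to 1304 CPM.

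Other genes of the pathway were followed in 4 lists. Of 21 further basement membrane genes, 0 were called in any comparison, and in Gata5-/- against wildtype 14 were below 0 with a median of -0.07. Of 28 integrin adaptor and signalling genes, 27 were in the table, 0 were called and 17 were below 0 with a median of -0.11. Of 22 other integrin ligands, 20 were tested, 0 were called and 13 were below 0 (median -0.03). All 12 genes of laminin receptors other than integrins were tested, with 0 called and 11 below 0 (median -0.09). These counts at an unadjusted p under 0.05 were 4 lower and 1 higher, 4 and 1, 1 and 1, and 0 and 0. Over all genes tested, 3.36% were lower and 2.04% higher by that rule, and 53.9% had a fold change below 0.

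Among basement membrane genes the smallest p-values were those of Col4a6 and Col4a5, which form a type IV collagen network together. Col4a6 was at 231 ± 29.2 CPM in wildtype and 138 ± 28.7 in Gata5-/- libraries (SD, n = 4 each), without overlap (log2 fold change -0.74, SE 0.15, edgeR adjusted p = 0.139, exact permutation p = 0.0286). Col4a5 was at 418 ± 9.91 and 314 ± 49.8 (log2 fold change -0.41, SE 0.12, edgeR adjusted p = 0.64). Npnt, which encodes nephronectin, a ligand of α8β1, was at 207 ± 36.2 and 151 ± 17.3 CPM (log2 fold change -0.45, SE 0.14, edgeR adjusted p = 0.772), and its groups overlapped. Frem2, a basement membrane protein of the Fraser complex, was higher in every Gata5-/- library than in wildtype, at 59.7 ± 10.4 and 88.2 ± 10.8 CPM (log2 fold change 0.56, SE 0.17, edgeR adjusted p = 0.662, exact permutation p = 0.0286). Npnt and Frem2 were chosen after their values were seen. Vcl, the focal adhesion protein vinculin, was at 507 ± 72.9 and 336 ± 73.3 CPM (log2 fold change -0.59, SE 0.14, edgeR adjusted p = 0.341, exact permutation p = 0.0571). Rsu1, a partner of the integrin-linked kinase complex, was at -0.48 (SE 0.17). Of the ligands, Ccn1 was at 0.48 (SE 0.17) and the tenascin Tnxb at -0.35 (SE 0.17), and of the other laminin receptors, Rpsa was at 0.15 (SE 0.11) and Utrn, or utrophin, at -0.14 (SE 0.10).

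Exons of some genes overlap those of others in the older annotation. For Itga8, 5.05% of its exon length is shared with the antisense gene E030013I19Rik, which stood at 33.5 to 36.7 CPM in wildtype, 22.0 to 29.8 in Gata5+/- and 17.1 to 36.5 in Gata5-/- libraries. Reads of both cannot be told apart if the libraries kept no strand. For Nid2 the share was 8.45% (Rtraf, opposite strand), for Itga4 8.04% (Cerkl, opposite strand) and for Itgav 5.90%.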

How the data were processed

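The authors deposited whole-number counts per gene for 12 libraries. For 13959 genes the authors also deposited a normalized signal (mean over libraries), log2 fold changes with errors and Wald statistics (scores), and p-values before and after adjustment. No comparison is named there, but a DESeq2 refit of Gata5-/- against wildtype came within 1.655e-04 of every fold change. Per the submitters' processing notes, Trim Galore, STAR 2.7.10b, GRCm39 and DESeq2 1.34.0 were used. The counting tool and annotation release are not given in the material at hand. The labels describe directional and non-directional library preparation without saying which was used, so the strand of these counts is unknown.

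Differences were fitted with edgeR 4.0.16 (R 4.3.3). filterByExpr kept 19346 genes and all 34 members, of which 1 is counted in the totals but not reported here by itself. A robust quasi-likelihood fit of all 12 libraries with TMM scaling and a term per group gave each comparison, with Benjamini-Hochberg adjustment over 19346 genes and a threshold of 0.05. For single genes, exact permutation over all 35 splits gave a two-sided p (smallest 0.0286). DESeq2 1.42.0 and limma 3.58.1 were alternatives, as were other scalings and filters, 8 libraries only, a replicate block and leaving out libraries. Since each library is a pool, p-values measure the spread between pools. The edgeR fit was checked on simulated data, with planted changes larger than any of the 34 genes over 10 CPM had. That check does not show whether changes of the size seen here would be called. Exon lengths and overlaps came from an older mouse annotation (GENCODE vM21, GRCm38), whose coordinates were not combined with the counts. The members, gene lists and rules were chosen with earlier results of these data known. Named were, for each comparison, genes without overlap and then those of smallest p, up to 6, plus the highest wildtype gene per role and 2 per pathway list by p.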

Additional observations from a re-analysis of the deposited data

Results flagged for a closer look

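In 5 of 102 sets of 4 pools (34 genes in 3 groups), 1 pool lay far from the other 3 by Dixon's criterion at the 95% level, and chance gives about 1 set in 20. In CPM, Itga10 was at 43.04 in Gata5+/- replicate 3, against 52.16 to 53.57 in the other pools of the group. Itga5 was at 51.27 in Gata5+/- replicate 1, against 68.48 to 69.56. Itgb2 was at 8.693 in Gata5+/- replicate 2, against 2.186 to 3.276. Itgb8 was at 25.54 in wildtype replicate 4, against 34.47 to 35.06, and Lama4 was at 325 in Gata5-/- replicate 4, against 283.6 to 287.1.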

How the results depend on the processing

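The fold changes of the 6 genes named in each comparison for lack of overlap or smallest p kept their direction under the alternatives tried. Other named genes were not refitted one by one. The median of the 34 genes in Gata5+/- against wildtype, -0.03, became 0.01 without Gata5+/- replicate 1. For Gata5-/- against wildtype, members called numbered 0, and 1 with DESeq2 (Itga8). Leaving out 1 library gave 0 to 2, with 2 without Gata5-/- replicate 4. Members lower without overlap numbered 3, with 3 to 6 when 1 library was left out (6 without wildtype replicate 3, 5 without Gata5-/- replicate 4). Leaving out a library of a compared group makes lack of overlap easier to reach for any gene. No share over all genes was computed for these settings, so a higher count is not a result about the members. For Gata5+/- against wildtype the count of members lower without overlap was 0, with 0 to 3 (3 without wildtype replicate 3 or Gata5+/- replicate 3). For Gata5-/- against Gata5+/- it was 1, with 0 to 4 (4 without Gata5-/- replicate 4, 3 without Gata5+/- replicate 1). It was 0 with RLE scaling, upper quartile scaling, a stricter filter (1 CPM or more in 4 libraries or more), only the 8 libraries of both groups, and without both libraries that stand apart. The cause was not tested. Genes called over the whole table in Gata5-/- against wildtype numbered 5, with 2 to 21 when 1 library was left out and 0 to 45 under the other alternatives.

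Replicate numbers were tested for pairing. Same-numbered libraries' deviations correlated at -0.03 to 0.10, and 0 of 4 pairs in each comparison exceeded 0.1, so no pairing by number was seen. A correlation over all genes cannot exclude a small effect shared by same-numbered libraries. With the replicate number as a block, 0 members were called in each comparison, Itga8 was at -0.58 (edgeR adjusted p = 0.154), and 7 genes were called over the whole table in Gata5-/- against wildtype. Own-number matches were best in 2, 1 and 0 of 4 libraries.

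Genes at 0 to a few CPM, such as the leukocyte integrins, had SEs of 0.78 to 1.76 and showed no change detectable at this depth.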
